A study of Rattus norvegicus with 8 samples.

Results

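Genes of base excision, nucleotide excision and mismatch repair were examined in rat nucleus pulposus (NP) cells after knockdown of Sirt6. The members were 35 genes chosen by name, 17 of base excision repair, 13 of nucleotide excision repair and 5 of mismatch repair. Of these, 34 had a named row among 32883 gene rows. Names came from a second deposited table that does not name every gene row, so genes without a named row may still have counts. All 34 passed the filter on low counts, which kept 13250 genes. Ercc4, which encodes the XPF nuclease subunit, is not analysed here. The cells were primary rat NP cells, taken from the soft centre of the disc and kept in DMEM with 10% FBS. Sirt6-KD cells received lentivirus with a mixture of 3 ShRNA clones against Sirt6, and Sirt6-Ctrl cells received lentivirus with a control ShRNA, so that all 8 libraries came from transduced cells in culture. There were 4 libraries a group, Sirt6-Ctrl being S1 to S4 and Sirt6-KD being S5 to S8, and the series record names 4 rats without saying which library came from which rat.

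SIRT6 is a nuclear NAD-dependent deacylase of histone H3 that is known for its part in DNA repair and genome stability. Base excision repair removes single altered bases: a DNA glycosylase cuts the base out, the endonuclease APEX1 opens the strand, and polymerase beta with XRCC1 and ligase 3 fills and seals the gap. Nucleotide excision repair cuts out a short stretch around a bulky lesion, which XPC or a stalled RNA polymerase first recognises, TFIIH opens and a pair of nucleases incises. Mismatch repair follows replication, with MutS complexes reading the mismatch and MutL complexes directing its removal.

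Sirt6 itself was measured at 56.4, 54.3, 52.5 and 47.6 CPM (TMM-normalized counts per 1000000) in Sirt6-Ctrl and at 21.8, 21.0, 19.2 and 20.6 CPM in Sirt6-KD. Its log2 fold change was -1.35 (SE 0.13, adjusted p = 0.000713, edgeR's quasi-likelihood test with Benjamini-Hochberg adjustment). Depth was 31994838 to 40124813 counts a library. ERCC spike-ins, synthetic RNAs added to a sample, took 6.27%, 9.80%, 3.08% and 2.97% of the counts in Sirt6-Ctrl, and Sirt6-KD libraries had 2.15% to 2.47% (two-sided exact permutation p = 0.0286, the smallest for 4 against 4), so S1 and S2 stood apart in this share, and without them the log2 fold change of 9 of the 34 repair genes changed sign, none of them called. Correlations of log2 CPM were 0.994 to 0.995 among Sirt6-KD libraries and 0.969 to 0.988 among Sirt6-Ctrl libraries, and S3 correlated with the Sirt6-KD libraries at 0.989 to 0.990, above its 0.969 to 0.988 with the other controls. Of 19 NP marker names 12 had a named row. The 19 include 2 spellings each for T (Tbxt), Car3 (Ca3) and Car12 (Ca12). No row carried the name Col2a1, Krt18, Krt19, T or Tbxt. Here and below, a missing name does not show that a gene had no counts. Krt8 (log2 fold change -1.32) and Car3 (-2.70) were called lower, Slc2a1 (1.27) was called higher, though only Car3 kept its call without S1 and S2, and Pax1 (-0.43, adjusted p = 0.0459) missed the limit on the fold alone. Foxf1 (-0.29), Acan (-0.62), Cd24 (-0.98) and Vim (-0.29) were not called, nor were Car12 (1.53), Hif1a (0.63), Cdh2 (0.53) and Sox9 (0.48). Of the 12 NP markers 5 were positive and 7 negative, and the 3 called were 25%, beside 18.7% of all genes. Of 9 annulus and fibroblast markers with a row 8 were negative, with a median of -0.76, where 50.9% of all genes were negative. Called lower were 3, Col3a1 (-1.38), Dpt (-3.15) and Scx (-1.20), or 33.3%, beside 10.7% of all genes. Scx overlapped between the groups and lost its call without S1 and S2, where Mkx (-1.05) and Lum (-1.75) gained one. The summed level was 14561 to 27512 CPM in Sirt6-Ctrl and 8683 to 18524 CPM in Sirt6-KD. Most of it was Col1a1, at 13286 to 25213 CPM and 7961 to 17465 CPM, which was not called. The part of these markers in the repair gene results was not tested. Of 11 macrophage marker names 3 had a row, with a summed level of 11.9 to 29.7 CPM in Sirt6-Ctrl and 14.96 to 23.8 CPM in Sirt6-KD, and the row-less names included Ptprc and C1qa. Of 8 endothelial names 2 had a row, with a summed level of 17.5 to 28.5 CPM and 16.3 to 22.3 CPM, and Pecam1 and Cdh5 had none. Fewer cells of a type and less RNA per cell cannot be told apart in such bulk samples.

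Of the 34 repair genes, 4 passed the test, meaning an adjusted p under 0.05 together with a change of over 1.5-fold. Tdg and Ercc3 fell, and Ercc5 and Msh6 rose. That is 11.8% of the members, where 18.7% of all genes tested passed. By direction, 10.7% of all genes were called lower and 8.02% higher, against 2 members each way. Dropping the limit on the fold added no member, while it raised the share of all genes to 21.9%. The groups did not overlap for 5 members, or 14.7%, where 30.4% of all genes did not overlap. The median size of the log2 fold change was 0.28 over the members and 0.50 over all genes. The log2 fold change was negative for 21 members and positive for 13, and 50.9% of all genes were negative. The 95% interval lay within a 1.5-fold change either way for 8 of the 34 members, against 1809 of 13250 genes, or 13.7%. With TMM scaling these data thus bound the change of those 8 closely and leave wider limits for the rest. With libraries scaled by their spike-ins, which moved the all-gene median to 0.94, those 8 had values from 0.76 (Ddb1) to 1.15 (Parp1).

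**Figure D1:**
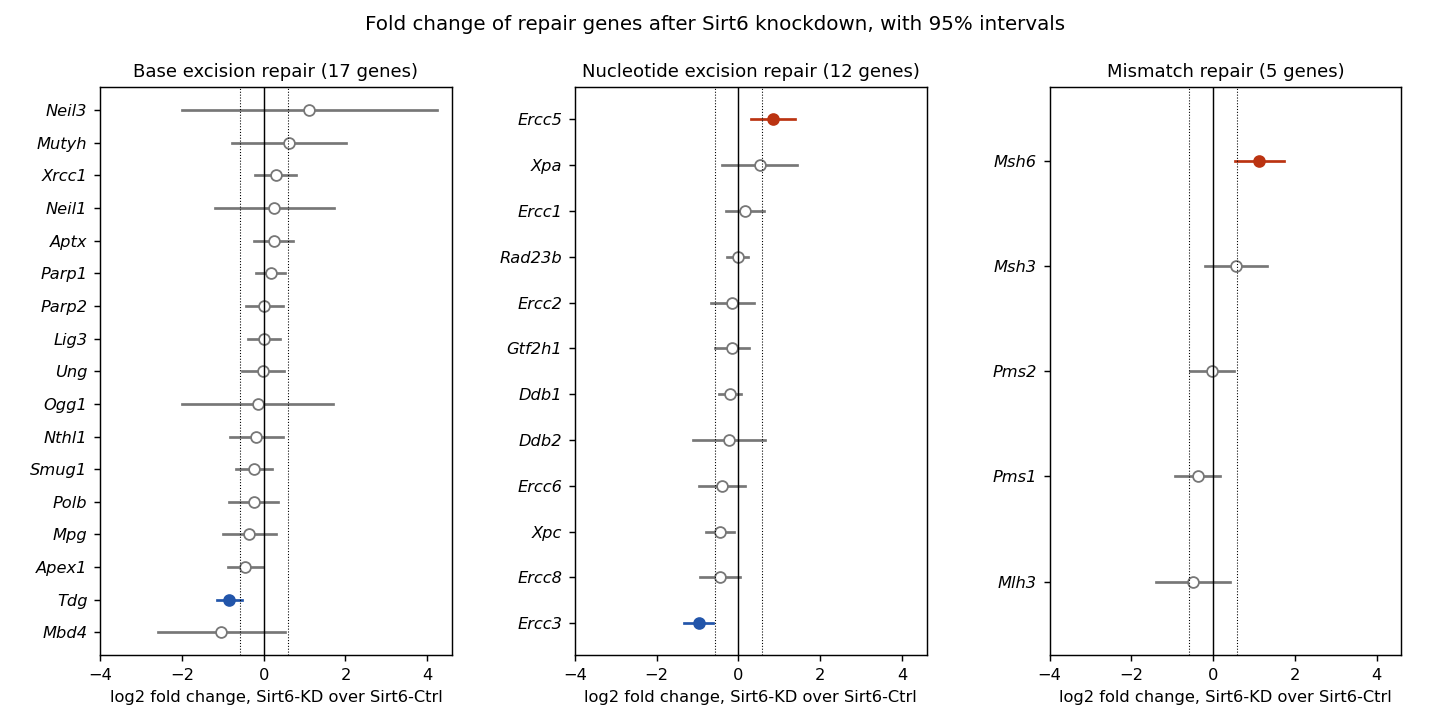
Log2 fold change (Sirt6-KD against Sirt6-Ctrl) for each of the 34 repair genes, by pathway, with the 95% interval as a line, filled blue for genes called lower and filled red for genes called higher, and dotted lines at a 1.5-fold change. Tdg (-0.84) and Ercc3 (-0.97) lie to the left and Ercc5 (0.85) and Msh6 (1.13) to the right, while Neil3 has the widest interval, from -2.01 to 4.24.

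The start regions of the 4 called genes are shown because the results turn on these genes. They run from 250 bases before to 30 bases after the RefSeq start, 5′ to 3′ on the gene's strand, in GRCr8. Capitals mark matches, on either strand, to the letters of the CCAAT box (CCAAT), the GC box (GGGCGG), ETS (CCGGAAGT), CRE (TGACGTCA), the NRF1 half-site (GCATGCGC), the TATA box (TATAAA) and E2F (TTTCCCGC, TTTCGCGC, TTTGCCGC or TTTGGCGC). None of the capitals belong to more than 1 motif.
Tdg, chr7:22985071-22985350, minus strand: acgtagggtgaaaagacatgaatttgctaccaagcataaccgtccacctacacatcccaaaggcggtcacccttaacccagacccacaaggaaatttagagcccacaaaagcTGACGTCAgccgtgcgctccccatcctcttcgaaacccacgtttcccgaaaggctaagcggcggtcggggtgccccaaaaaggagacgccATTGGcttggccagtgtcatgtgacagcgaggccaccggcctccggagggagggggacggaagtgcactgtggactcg
Ercc3, chr18:24157581-24157860, plus strand: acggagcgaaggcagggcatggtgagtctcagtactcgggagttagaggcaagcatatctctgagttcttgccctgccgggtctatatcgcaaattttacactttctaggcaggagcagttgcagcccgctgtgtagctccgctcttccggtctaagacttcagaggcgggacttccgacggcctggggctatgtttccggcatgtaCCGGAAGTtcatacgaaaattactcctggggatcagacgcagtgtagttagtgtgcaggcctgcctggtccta
Ercc5, chr9:53801221-53801500, plus strand: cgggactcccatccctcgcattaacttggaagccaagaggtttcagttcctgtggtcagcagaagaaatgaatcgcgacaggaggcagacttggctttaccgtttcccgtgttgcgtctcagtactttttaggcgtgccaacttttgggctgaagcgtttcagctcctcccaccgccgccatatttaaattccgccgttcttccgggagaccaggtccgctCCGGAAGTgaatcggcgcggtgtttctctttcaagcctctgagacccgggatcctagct
Msh6, chr6:12333476-12333755, minus strand: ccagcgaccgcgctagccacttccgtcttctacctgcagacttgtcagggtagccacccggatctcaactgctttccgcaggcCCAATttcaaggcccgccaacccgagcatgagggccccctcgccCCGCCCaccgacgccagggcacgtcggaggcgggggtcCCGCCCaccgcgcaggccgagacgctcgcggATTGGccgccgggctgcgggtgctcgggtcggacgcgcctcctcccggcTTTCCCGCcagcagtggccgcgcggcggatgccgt

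The Tdg window held the CRE letters at positions -138 to -131 and a reverse CCAAT box at -48 to -44, counted from the start at 1. Ercc3, which fell, and Ercc5, which rose, both held the ETS letters, at -43 to -36 and at -29 to -22. Msh6 held CCAAT boxes at -167 to -163 and -54 to -50, GC boxes at -123 to -118 and -85 to -80, and the E2F letters TTTCCCGC across its start, from -5 to 3. Among the 28 members with a RefSeq window, 14 held a CCAAT box, 18 a GC box, 4 the ETS letters, 1 the CRE letters, 3 the E2F letters, 3 the NRF1 letters and 0 a TATA box. Among all 33469 windows of this length the shares were 36.2%, 32.2%, 3.68%, 1.78%, 2%, 2.41% and 13.7%, and among the 9371 tested genes with a window they were 38.2%, 63.9%, 8.34%, 3.21%, 3.98%, 5.25% and 7.22%. The E2F count depends on the scan. A first scan, of the 250 bases before the start with TTTCCCGC and TTTGGCGC alone, found E2F letters in 0 of 28 members and in 1.21% of all windows, and the window and spellings above were widened after its result and the cut match at the Msh6 start had been seen. With the first spellings in the longer window 1 member matched, Msh6, and with the 4 spellings in the shorter window 2 matched, Nthl1 and Ung. A match is a run of letters and not a measured binding site.

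Base excision repair, with 17 genes, had 1 called lower and 0 called higher, and its median log2 fold change was -0.02, beside -0.02 over all genes tested. The gene that fell was Tdg, which encodes thymine DNA glycosylase, an enzyme that removes thymine from G:T mispairs and takes part in active DNA demethylation. Tdg stood at 67.9, 90.0, 67.7 and 70.0 CPM in Sirt6-Ctrl and at 42.8, 43.1, 37.7 and 41.8 CPM in Sirt6-KD. All 4 Sirt6-KD libraries lay below the lowest Sirt6-Ctrl library, and S2 was the highest of all. The level fell by 44.1%, a log2 fold change of -0.84 (SE 0.14, 95% interval -1.15 to -0.53, adjusted p = 0.00484). Leaving out any 1 library kept the call, with values from -0.88 to -0.72, as did leaving out S1 and S2 together (-0.73, adjusted p = 0.00954). Scaling libraries by their spike-ins ended it: the value became 0.18 with an adjusted p of 0.768, or -0.76 after subtraction of the all-gene median, which that scaling moved to 0.94.

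The other 9 glycosylases did not pass. Ung, which removes uracil, had a log2 fold change of -0.02 (SE 0.23), and Smug1, another uracil glycosylase, -0.24 (SE 0.20). Mpg, which removes alkylated bases, had -0.36 (SE 0.29), and Nthl1, which removes oxidised pyrimidines, -0.19 (SE 0.29). Their groups overlapped. Without S1 and S2 the values of Ung, Mpg and Nthl1 were 0.21, 0.05 and 0.35, each of the opposite sign, and Smug1 was at -0.27.

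The glycosylase genes Ogg1, Mutyh and Neil1 were measured at low levels. Ogg1, which removes 8-oxoguanine, stood at 4.83, 0.0928, 4.06 and 4.80 CPM in Sirt6-Ctrl and at 3.56, 1.37, 2.97 and 4.53 CPM in Sirt6-KD, with S2 far below the other controls, at 3 counts. Mutyh, which removes adenine placed opposite 8-oxoguanine, ranged from 0.436 to 4.36 CPM and from 2.60 to 6.09 CPM. Neil1 stood at 4.94, 0.340, 7.57 and 6.33 CPM against 5.18 to 6.33 CPM, again with S2 lowest. Their log2 fold changes were -0.15 (SE 0.83), 0.61 (SE 0.63) and 0.26 (SE 0.66), so changes beyond 2-fold in either direction lie within the intervals of Ogg1 and Neil1. Without S2 they were -0.54, 0.93 and -0.12, and without S1 and S2 -0.50, 1.37 and -0.26, so the sign for Neil1 rests on S2. Mbd4, which acts on the same G:T mispairs as Tdg, was at 0.776, 10.2, 2.86 and 2.11 CPM in Sirt6-Ctrl and at 1.54 to 2.20 CPM in Sirt6-KD. Its log2 fold change was -1.03 (SE 0.70) over all libraries and 0.03 without S2, and without S1 and S2 it was -0.34. Neil3, which is known from dividing cells, did not exceed 0.886 CPM in any library.

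The later steps of base excision repair showed no call. Apex1, the endonuclease that cuts at abasic sites, stood at 114, 130, 78.0 and 71.5 CPM in Sirt6-Ctrl and at 75.1, 74.1, 67.2 and 73.1 CPM in Sirt6-KD. S1 and S2 were high, and S3 and S4 lay in or near the Sirt6-KD range. Its log2 fold change was -0.45 (SE 0.19, adjusted p = 0.118), and without S1 and S2 it was -0.04. Polb, the gap-filling polymerase, had -0.24 (SE 0.27) and Aptx, which clears aborted ligation ends, 0.25 (SE 0.22). Xrcc1, the scaffold of the single-strand break complex, had 0.29 (SE 0.23), and its partner ligase gene Lig3 had 0.01 (SE 0.18, interval -0.39 to 0.41), or -0.20 without S1 and S2. The strand-break sensors Parp1 and Parp2, which mark broken DNA with ADP-ribose, had 0.18 (SE 0.16) and 0.01 (SE 0.20), and both intervals lay within 1.5-fold.

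**Figure D2:**
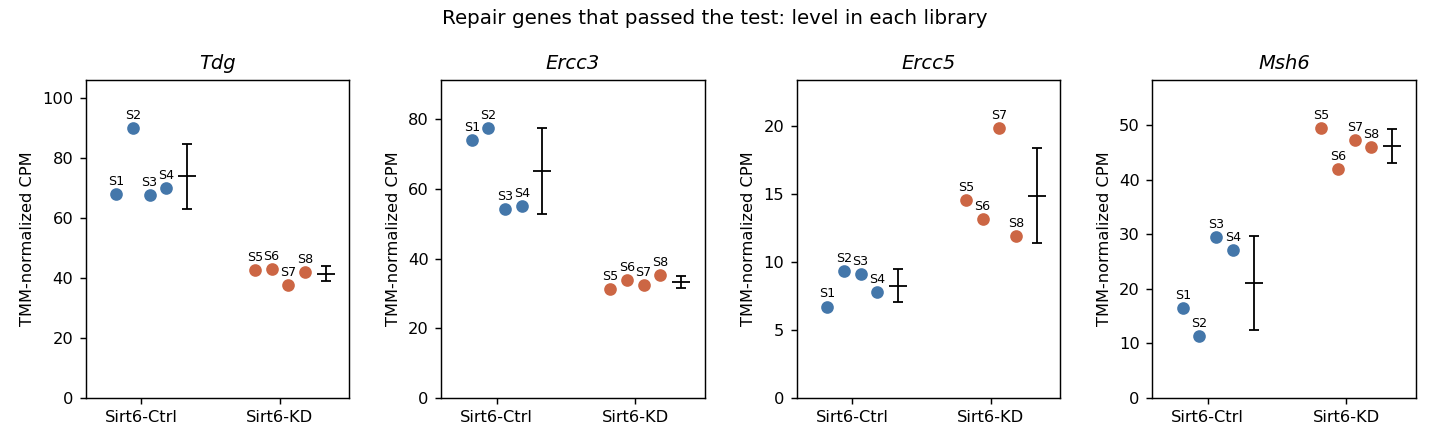
TMM-normalized CPM of Tdg, Ercc3, Ercc5 and Msh6 in each library (blue Sirt6-Ctrl, orange Sirt6-KD), with the mean and SD of 4 libraries beside the points and each axis starting at 0. In no panel do the groups overlap, and the Sirt6-Ctrl libraries of Msh6 spread from 11.3 to 29.6 CPM.

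Nucleotide excision repair, with 12 genes measured, had 1 called lower and 1 called higher. Its median log2 fold change was -0.18, and 9 of the 12 were negative. The gene that fell was Ercc3, which encodes XPB, a DNA translocase of TFIIH that opens the DNA both for repair and at the start of transcription. Ercc3 stood at 74.2, 77.5, 54.1 and 55.0 CPM in Sirt6-Ctrl and at 31.3, 33.8, 32.4 and 35.4 CPM in Sirt6-KD. S1 and S2 were higher than S3 and S4, and all 4 Sirt6-KD libraries lay below them. The level fell by 49.1%, a log2 fold change of -0.97 (SE 0.16, interval -1.32 to -0.62, adjusted p = 0.00447). Leaving out any 1 library kept the call, with values from -1.05 to -0.87, as did leaving out S1 and S2 together (-0.71, adjusted p = 0.0107), whereas spike-in scaling gave 0.11 with an adjusted p of 0.860, or -0.84 relative to the median of all genes.

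The other TFIIH members, Ercc2, which encodes the XPD helicase, and Gtf2h1, had log2 fold changes of -0.15 (SE 0.23) and -0.15 (SE 0.19), with overlapping groups, and 0.07 and 0.19 without S1 and S2. Among TFIIH genes from the wider list, Gtf2h3 fell, from 18.6 ± 2.31 CPM to 10.8 ± 1.07 CPM (SD, n = 4 each), a log2 fold change of -0.78 (SE 0.20, adjusted p = 0.0196, edgeR). Cdk7, the kinase subunit, had -0.48 with an adjusted p of 0.0478 and a fold change under 1.5. Gtf2h5 had -0.62 (adjusted p = 0.0800), and Gtf2h2, Gtf2h4, Ccnh and Mnat1 lay between -0.14 and 0.17. Ercc3 was also set against its TFIIH partners within each library, a ratio that shows change relative to the partner and not a fall of Ercc3 itself. The log2 ratio of Ercc3 to Ercc2 was 2.14 to 2.84 in Sirt6-Ctrl and 1.46 to 1.70 after knockdown, and that of Ercc3 to Gtf2h1 from -1.09 to -0.57 and from -1.89 to -1.56. The groups did not overlap in either ratio. These pairs were chosen after the values had been seen, repeat the counts behind the fold changes, and were not tested.

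The gene that rose in this pathway was Ercc5, which encodes XPG, the nuclease that cuts on the 3′ side of the lesion. Ercc5 stood at 6.72, 9.31, 9.13 and 7.81 CPM in Sirt6-Ctrl and at 14.6, 13.2, 19.9 and 11.9 CPM in Sirt6-KD. The Sirt6-KD libraries all lay above the controls, and S7 was the highest. The log2 fold change was 0.85 (SE 0.24, interval 0.32 to 1.39, adjusted p = 0.0313). The call was lost in 5 of 8 fits that left out 1 library, without S1, S4, S5, S6 or S7, with values from 0.68 to 0.98 and adjusted p up to 0.120, and it was lost without S1 and S2 together (0.82, adjusted p = 0.0591). Ercc1, whose product forms the 5′ nuclease with XPF, had 0.16 (SE 0.21), or 0.43 without S2, and the log2 ratio of Ercc5 to Ercc1 rose from a range of -3.27 to -2.57 to a range of -2.46 to -1.57.

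Damage recognition genes of the pathway were not called. Xpc, which encodes the sensor of helix distortion, stood at 43.7, 31.4, 37.0 and 36.6 CPM in Sirt6-Ctrl and at 27.4, 30.3, 27.6 and 24.0 CPM in Sirt6-KD. The groups did not overlap, though S2 and S6 were close. The log2 fold change was -0.44 (SE 0.16, adjusted p = 0.0658), which misses the threshold. Without S2 it was -0.50 with an adjusted p of 0.0337, still under a 1.5-fold change. Without S1 it was -0.33 (adjusted p = 0.204), and without S1 and S2 together -0.42 (adjusted p = 0.0796). Rad23b, which encodes the XPC partner, differed little, with -0.02 (SE 0.11, interval -0.27 to 0.23) at 444 ± 27.6 and 438 ± 17.0 CPM (SD, n = 4 each). Within libraries the log2 ratio of Xpc to Rad23b was -3.86 to -3.35 in Sirt6-Ctrl libraries and -4.14 to -3.88 in the others. Ddb1 and Ddb2, which encode the UV-damaged DNA binding complex, had log2 fold changes of -0.22 (SE 0.12) and -0.24 (SE 0.40). For Ddb2 the value was -0.02 without S2 and -0.32 without S1 and S2. Ercc6 and Ercc8, which encode the transcription-coupled factors CSB and CSA, had -0.40 (SE 0.25) and -0.45 (SE 0.22, adjusted p = 0.171). Xpa, the scaffold that verifies the lesion, had 0.51 (SE 0.41) at 2.01 to 8.54 CPM.

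Mismatch repair, with 5 genes, had 1 called higher and 0 called lower, and a median log2 fold change of -0.03. The gene that rose was Msh6, a MutS gene whose product reads base mismatches and short loops. Msh6 stood at 16.4, 11.3, 29.6 and 27.2 CPM in Sirt6-Ctrl and at 49.5, 41.9, 47.4 and 46.1 CPM in Sirt6-KD. Each Sirt6-KD library exceeded each control, and among the controls S1 and S2 were lower than S3 and S4. The log2 fold change was 1.13 (SE 0.27, interval 0.52 to 1.74, adjusted p = 0.0181), a 2.19-fold rise. The call held at a smaller value without S1 and S2 together (0.71, adjusted p = 0.0139), and was lost without S1, S5 or S7 alone, with values over all 8 such fits from 0.94 to 1.33 and adjusted p up to 0.0605.

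Msh3, the MutS gene whose product reads larger loops, stood at 15.6, 5.07, 8.77 and 6.93 CPM in Sirt6-Ctrl and at 11.2, 12.7, 16.8 and 12.8 CPM in Sirt6-KD. Library S1 lay within the Sirt6-KD range, so the groups overlapped, while the other 3 controls lay below it. The log2 fold change was 0.56 (SE 0.34, interval -0.20 to 1.31, adjusted p = 0.266). The log2 ratio of Msh6 to Msh3 was 0.073 to 1.97 in Sirt6-Ctrl and 1.49 to 2.15 after knockdown, with overlap. The MutL genes Pms2, Pms1 and Mlh3, whose products act after the mismatch is read, had -0.03 (SE 0.25), -0.38 (SE 0.25) and -0.50 (SE 0.41). Mlh3 was at 12.9 CPM in S4 and at 4.18 to 6.44 CPM in the other controls. Its value was -0.08 without S4 and -0.84 without S1 and S2, not called.

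**Figure D3:**
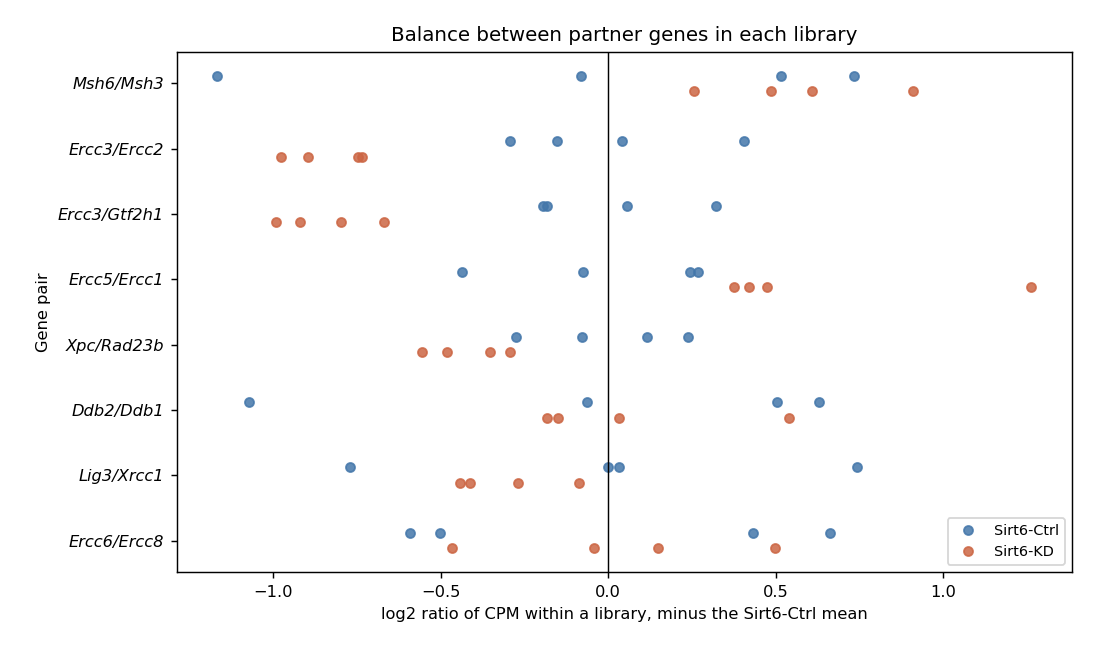
Log2 ratio of CPM between partner genes in each library, minus the Sirt6-Ctrl mean of that ratio (blue Sirt6-Ctrl, orange Sirt6-KD). Ercc3/Ercc2, Ercc3/Gtf2h1, Ercc5/Ercc1 and Xpc/Rad23b do not overlap between groups, and the other 4 pairs do.

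Markers of dividing cells were read beside Msh6. Mki67, a marker of cycling cells, stood at 5.34, 4.73, 21.0 and 18.7 CPM in Sirt6-Ctrl and at 43.4, 40.9, 43.0 and 44.4 CPM in Sirt6-KD, low in the same S1 and S2. The summed level of 14 mitosis genes was 38.6, 52.1, 131 and 202 CPM against 226 to 254 CPM. Of the 14, 2 were called higher (Mki67 and Cenpf) and 0 lower, or 14.3%, where 8.02% of all genes were called higher. The log2 fold change was positive for 13 of the 14, with a median of 1.01. Without S1 and S2 all 14 values were lower, from -0.57 (Aurka) to 1.12 (Mki67), with Cdc20 at -0.01 and Plk1 at 0.02. Mki67 and Cenpf (0.95) kept their calls there, and Cenpe (0.86) gained one. The groups did not overlap for 7 of them, or 50%, beside 30.4% of all genes. Of 25 S-phase genes 1 was called higher (Mcm2) and 2 lower (Gins2 and Slbp), or 12%, beside 18.7% of all genes. Their summed level was 454, 509, 448 and 545 CPM in Sirt6-Ctrl and 516 to 548 CPM after knockdown. This sum did not follow Msh6 among the controls. Abundant genes such as Pcna (66.8 to 104 CPM in Sirt6-Ctrl) weigh most in such a sum. The log2 fold change was positive for 14 of the 25 S-phase genes, with a median of 0.21. Single genes differed. Uhrf1 stood at 1.52, 0.680, 11.4 and 13.4 CPM in Sirt6-Ctrl, low in S1 and S2 like Msh6. Slbp stood at 74.4, 62.6, 52.3 and 58.9 CPM, high in both. The part of cell division and of the spike-in share in the Msh6 result was not tested.

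**Figure D4:**
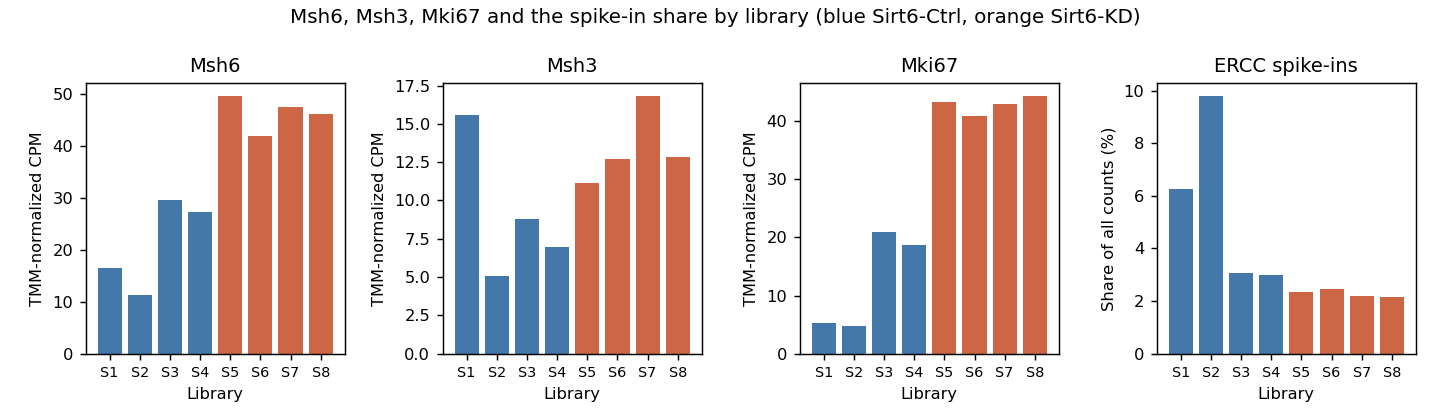
Msh6, Msh3 and Mki67 (TMM-normalized CPM) and the share of counts on ERCC spike-ins (%) in each library, blue for Sirt6-Ctrl and orange for Sirt6-KD. Msh6 and Mki67 are lowest in S1 and S2, where the spike-in share is highest (6.27% and 9.80%), while Msh3 is highest among the controls in S1 (15.6 CPM).

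Xpc and Ddb2 are known targets of p53 in human cells, and whether p53 acts on them in these rat cells was not tested. Of 15 p53 target genes 6 were called lower and 0 higher, or 40%, where 10.7% of all genes were called lower. Of the 15, 5 had a positive log2 fold change. Without S1 and S2 the calls of Cdkn1a (-1.32), Sesn1 (-1.30) and Ccng1 (-0.73) held. Those of Mdm2 (-0.34), Sesn2 (-0.50) and Phlda3 (-0.42) were lost. Cdkn1a, which encodes the cell cycle inhibitor p21, went from 634, 743, 382 and 445 CPM to 151, 141, 156 and 208 CPM (log2 fold change -1.75, SE 0.23, adjusted p = 0.00217, edgeR). The part of this difference in the levels of Xpc and Ddb2 was not tested.

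Beyond the members, 49 other genes of the same pathways were tested, from a list that also holds replication factors shared between them. Of these, 3 were called higher and 7 lower, or 20.4%, beside 18.7% of all genes. Fen1, the flap nuclease of long-patch repair, fell from 22.2 ± 7.80 to 11.5 ± 1.11 CPM (SD, n = 4 each), with a log2 fold change of -0.95 (SE 0.25, adjusted p = 0.0252, edgeR). Apex2, a second abasic endonuclease, had -1.08, and the clamp loader subunits Rfc2 and Rfc5 had -0.83 and -1.07. Rbx1, a subunit of the ubiquitin ligase that DDB1 joins, had -0.90, and Xab2, an XPA-binding splicing factor, -0.91. Rfc5 overlapped between the groups. The genes called higher were Lig1, the replicative ligase (0.93), Pold1, the catalytic subunit of DNA polymerase delta (0.95), and Polr2a, the largest subunit of RNA polymerase II (0.67). Without S1 and S2, 4 of these 10 calls held, Fen1 (-0.77), Gtf2h3 (-0.71), Lig1 (0.99) and Pold1 (0.95). The other 6 were lost, among them Xab2, which moved to -0.34 and had stood at 112, 137, 64.1 and 63.6 CPM in Sirt6-Ctrl. Of those 6, Rbx1 (-0.55) and Polr2a (0.57) missed the limit on the fold alone. Rpa2 (-0.82) gained a call without S1 and S2. Pcna, the sliding clamp that all these pathways use, had -0.03 (SE 0.14, interval -0.35 to 0.29).

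Between the pathways, the share of tested members called was 5.88% for base excision repair, 16.7% for nucleotide excision repair and 20% for mismatch repair, from 1, 2 and 1 called genes, numbers too small to rank the pathways. Their median log2 fold changes were -0.02, -0.18 and -0.03. No test of a difference between pathways was made. The largest median deviation from the control mean of a library belonged to mismatch repair in S2, at -0.63 on the log2 scale.

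**Figure D5:**
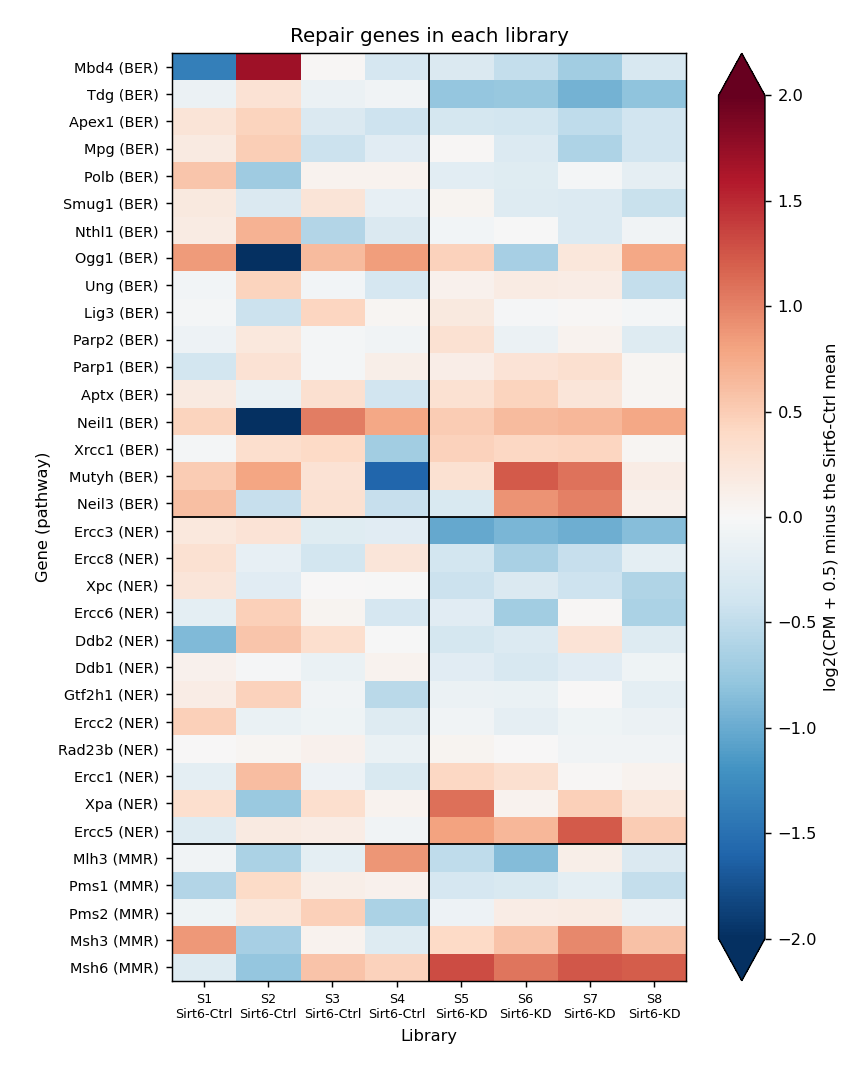
Log2(CPM + 0.5) of each repair gene in each library minus its Sirt6-Ctrl mean, by pathway (BER, NER, MMR), red for higher and blue for lower, with the colour held at 2 either way. Tdg and Ercc3 are blue and Ercc5 and Msh6 red in all 4 Sirt6-KD libraries, and strong single deviations include Ogg1 and Neil1 in S2 and Mbd4 in S1 and S2.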

How the data were processed

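RNA of 4 Sirt6-Ctrl and 4 Sirt6-KD cultures was sequenced. The authors deposited unnormalized counts for Ensembl genes and ERCC spike-ins, and the submitters' processing notes name Trimmomatic 0.36, STAR 2.5.2b, featureCounts, Subread 1.5.2, DESeq2 and Rnor_6.0, without roles. A second deposited table gives gene names, a normalized signal (counts divided by 1 size factor a library), and the authors' log2 fold changes and p-values, which were not used.

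Counts were filtered with filterByExpr, normalized by TMM and tested with edgeR 4.0.16 in R 4.3.3 (glmQLFit, glmQLFTest, two-sided, unpaired, Benjamini-Hochberg adjustment over 13313 rows, 63 of them spike-ins). Calls needed an adjusted p under 0.05 and a change of over 1.5-fold. Alternatives were other filters and scalings, DESeq2 1.42.0, limma 3.58.1 (voom), glmTreat, spike-in scaling and leaving out libraries. The edgeR script was tested on simulated data. The floor of 3 counts was 0.0727 to 0.0928 CPM, which covers counting error only, since reads without identifiers may be copies of 1 molecule.

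Members and lists were chosen with earlier results of these data known. Every member was to be named; other genes were named from the lists after their values were seen. Labels do not say which libraries share a rat, so p-values measure the spread between these libraries, which may be partly technical. Some genes of the wider pathway list are not reported here and are not in its counts. Levels per length and a protein motif search were planned and not made, since transcript lengths and proteins were not at hand. Start regions came from RefSeq (GRCr8) by symbol, and 28 of 34 members matched. They were scanned first over 250 bases with 2 E2F spellings, and again, after that result was seen, over 280 bases with 4. The second scan is reported as the main one and the first beside it.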

Additional observations from a re-analysis of the deposited data

Results flagged for a closer look

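In 7 of 68 groups of 4 libraries, 1 library lay far from the others by Dixon's gap ratio, the gap to the nearest library over the whole range, which had to exceed 0.829. Chance flags about 1 in 20 groups, here 3.4. Library S2 was the highest Sirt6-Ctrl library for Tdg (0.898), Parp2 (0.843) and Ercc1 (0.835), and the lowest for Ogg1 (0.838). Library S8 was the lowest Sirt6-KD library for Xrcc1 (0.886) and Ung (0.871), and S7 the highest for Ddb2 (0.867). S2 also had the highest spike-in share, 9.80%, and its part in these gaps was not tested. Of the genes named here only Tdg was called, and without S2 it kept its call.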

How the results depend on the processing

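Looser and stricter filters, RLE and upper-quartile factors, DESeq2, limma-voom, removal of spike-in rows and the adjusted p alone called the same 4 members. Scaled by spike-ins, 0 members were called lower and 0 higher, and 4 and 20 of all genes. That scaling gave medians of 0.90 for base excision, 0.82 for nucleotide excision and 0.95 for mismatch repair, or -0.04, -0.12 and 0.01 relative to all genes. It also gave Sirt6 -0.36 (adjusted p = 0.566, -1.31 relative to all genes), Tdg 0.18, Ercc3 0.11, Ercc5 1.82 and Msh6 1.86, and the cause was not tested. Without S1 and S2, 1 member was called higher, 709 of all genes lower, and the nucleotide excision median was -0.082. With glmTreat at a 1.5-fold limit, 0 members were called lower and 0 higher, and 185 of all genes lower and 92 higher. Leaving out 1 library gave 2 members lower each time, 0 to 2 higher, and 700 to 1913 of all genes lower and 445 to 1699 higher. Neil3, Ogg1, Mutyh, Neil1 and Mbd4 had wide intervals, and only Neil3 stayed under 1 CPM in every library. No paired analysis was possible because the columns and labels give no rat or number that both groups share.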
